A study of Mus musculus with 4 samples.

Results

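The nuclear genes of oxidative phosphorylation were examined in mouse dental follicle and dental papilla. The members are the array's gene symbols that carry the stem names of the subunits of complex I (Nduf), complex II (Sdh), complex III (Uqcr and Cyc1) and complex IV (Cox), of cytochrome c (Cycs) and of ATP synthase (Atp5). The rule used names and no measured value, and it took 91 of the 16039 genes named on the array, read by 130 probes. They fall into 36 complex I subunits, 7 complex I assembly factors, 4 subunits of complex II, 9 of complex III, cytochrome c itself, 17 of complex IV and 17 of ATP synthase. The 7 assembly factors (Ndufaf genes) entered through their names and are not subunits, which leaves 84 genes of the working machinery. A gene was compared where its normalised signal reached 100 in at least 1 tissue and stage. This held for 88 of the 91 members and for 14238 genes in all, and Cox6a2, Cox8c and Ndufaf1 did not reach it. All 91 symbols were found in the RefSeq annotation by gene number, and several now have newer names in use, such as Atp5mc1 for Atp5g1.

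Oxidative phosphorylation is the route by which mitochondria make most ATP. Complexes I and II pass electrons from NADH and succinate to ubiquinone, complex III hands them to cytochrome c, and complex IV reduces oxygen, while the proton gradient that complexes I, III and IV build drives ATP synthase. The complexes are built from many nuclear-coded subunits, joined by a small set coded by mitochondrial DNA, and some subunits of complex IV exist as isoforms that replace each other by tissue. In the tooth germ, the follicle is the mesenchymal sac in which osteoclasts gather before eruption, and osteoclasts are cells rich in mitochondria. The papilla is the mesenchyme that becomes pulp and dentin-forming odontoblasts.

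The study set dental follicle (DF) against dental papilla (P) at the stages labelled E17 and PN2, and PN2 against E17 within each tissue. The labels describe 4 Agilent arrays of 2 colours each, and the deposited signals amount to 4 columns, DF E17, P E17, DF PN2 and P PN2, with 1 hybridisation behind each. No treatment or transgene is named for any group, and strain, sex, number of animals and pooling are not given in the sources used here. There is thus no replicate, no difference below has a replicate check, and no p-value was computed. Differences are given as log2 ratios of quantile-normalised signals, and a gene was called where the ratio passed 1 in size, the 2-fold limit that the labels name. A tissue and stage that recurs in several arrays carried identical signals each time and was counted once. The array of P PN2 against P E17 held the DF E17 signals in place of P E17, so P E17 came from the array of DF E17 against P E17. The comparisons share columns, so they are not independent of each other. The only error at hand is the spread between probes of 1 gene on the same hybridisations, which leaves out the spread between animals. Over the 29 members with several probes its pooled SD was 0.34 and 0.53 in DF over P at E17 and at PN2, and 0.37 and 0.48 in PN2 over E17 for the follicle and the papilla. The other 62 members have 1 probe each, among them every member called below.

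The tissue labels were set beside marker genes. These lists were chosen with earlier results of these data known, so they are no independent check of the labels. The 7 measured follicle markers were all higher in DF at both stages, with medians of 3.11 at E17 and 1.84 at PN2. Of the 9 papilla markers, 7 were lower in DF past 2-fold at each stage. The other 2 were above 0 at each stage, with the highest Msx1 at E17 (0.53) and Lhx8 at PN2 (1.29, past 2-fold). The follicle columns also carried osteoclast markers: all 10 were past 2-fold higher in DF at each stage, and their summed normalised signal was 77730 in DF E17 and 86660 in DF PN2 against 4427 in P E17 and 3479 in P PN2. Macrophage and leukocyte markers summed to 33830, 3766, 42730 and 5373 in the order DF E17, P E17, DF PN2 and P PN2. The 4 measured neutrophil markers summed to 44070 in DF PN2 and to between 256.7 and 477.7 elsewhere, and the 5 measured erythroid markers to 6307 in DF PN2 and to between 806.5 and 1463 elsewhere. The 6 endothelial markers summed to 2508, 1942, 2250 and 1104 in the order above, lowest in P PN2. Xist, the RNA that coats the inactive X chromosome, had a log2 ratio of -7.61 in DF E17 over P E17. Its DF over P ratio was 9.42 higher at PN2 than at E17, the largest rise of all genes compared. In tissue RNA, fewer cells of a type and less RNA per cell cannot be told apart. The part of these cells, and of what moves Xist, in the differences of the members was not tested.

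Most members were higher in the follicle than in the papilla at both stages, by small steps. At E17 the median log2 ratio of DF over P was 0.21 over the 88 members and -0.07 over all genes, and 67 of the 88 were above 0. At PN2 it was 0.37 over the members and -0.07 over all genes, again with 67 above 0. Of the 88, 57 (64.8%) were higher in DF at both stages, which held for 32.2% of all genes, and 11 (12.5%) were lower in DF at both stages against 39.8% of all genes. At E17 the highest members were Cox7a1 and Ndufs8, followed by Cox6a1 (0.98), Ndufb5 (0.83), Cox5a (0.73), Uqcrfs1 (0.72), Uqcr11 (0.72), Cox7b (0.71), Ndufa9 (0.71) and Atp5md (0.70). The direction of both medians was the same without normalisation, with median centring and in the ratios the authors deposited.

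Most members stayed within 2-fold in each comparison of quantile-normalised signals. In DF over P at PN2 this held for 86.4% of members and 73.8% of all genes. At E17, 2 members (2.27%) were called higher in DF and 3 (3.41%) lower, where 10.5% of all genes were called higher and 10.1% lower. Of those 3, Ndufaf2 and Cox8b passed the filter only through P E17, so the filter fixed their direction. With a filter at 200, 1 of 86 members was called lower, against 1042 of 11317 genes. Of all genes called at E17, 50.9% were higher, and 25.5% without normalisation. The like share was 48.9% and 63.3% at PN2, 48.5% and 21.2% in the follicle between stages, 56.3% and 2.49% in the papilla, and 47.0% and 87.3% for the change between stages. At PN2, 11 members (12.5%) were called higher in DF, against 12.8% of all genes, and 1 (1.14%) was called lower, against 13.4%. That count of higher members depended on the scaling: it was 18 (20.5%, against 13.5% of all genes) with median centring, 27 (30.7%, against 17.3%) in the deposited ratios and 34 (38.6%, against 19.7%) without normalisation. From E17 to PN2 in the follicle, 0 members were called higher, against 3.83% of all genes, and 1 lower, against 4.06%. In the papilla 0 were called higher at PN2, against 6.55%, and 3 (3.41%) lower, against 5.09%. Cox8b is among these 3, again with its direction fixed by the filter. The change of the DF over P ratio between stages passed 2-fold upward in 6 members (6.82%), against 8.12% of all genes, and downward in 1 (1.14%), against 9.14%. Ndufaf2 and Cox8b are among those 6. With a filter at 200 the counts were 4 upward and 1 downward, against 855 and 953 of 11317 genes. In all, 71 members (80.7%) stayed within 2-fold in all 4 comparisons, as did 60.4% of all genes and 70.2% of the 3560 genes at or above the 75th percentile of mean signal, to which 65 of the members belong. The members between the 25th and 75th percentiles spanned 0.49 at E17 and 0.67 at PN2 in DF over P, narrower than the 0.94 and 1.13 of all genes.

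**Figure D1:**
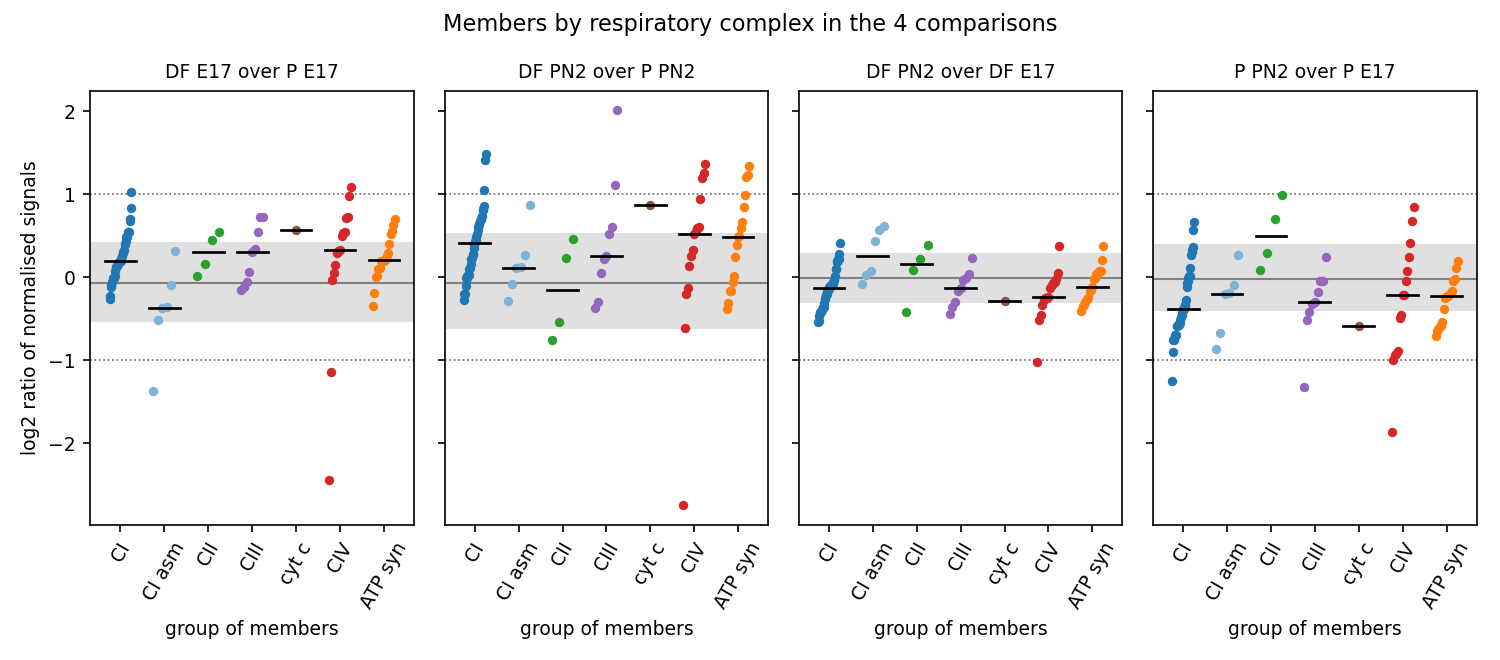
Log2 ratio of normalised signals (vertical axis) of the 88 compared members, by complex (horizontal axis), in each of the 4 comparisons. Each point is 1 gene, black bars are group medians, the grey line and band are the median and the range from the 25th to the 75th percentile of all 14238 genes, and dotted lines mark 2-fold. Most members lie above the line of all genes in DF over P, and complex II lies above it in the papilla from E17 to PN2, where the other groups lie below.

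The column that stood apart was the PN2 papilla. For 55 of the 88 members (62.5%) P PN2 was the lowest of the 4 columns, against 26.4% of all genes, and for 44 (50%) DF E17 was the highest, against 19.8%. With median centring in place of quantile normalisation these counts were 47 (53.4%, against 25.7% of all genes) and 35 (39.8%, against 18.3%). From E17 to PN2 the median of the members was -0.29 in the papilla, where the median of all genes was -0.02, and 66 of 88 were below 0. The members' median minus that of all genes was -0.27 here and -0.15 with median centring, in the deposited ratios and without normalisation. The last settings differ from each other by a constant per comparison, so they share this value by construction. In the follicle the median was -0.11 against -0.01 for all genes. That direction did not hold, since the median was 0.01 with median centring and 0.09 in the deposited ratios, equal to the median of all genes to 2 decimals. After Cox7b, the lowest members in the follicle were Ndufb5 (-0.54), Ndufs3 (-0.53), Cox7a1 (-0.51), Ndufb2 (-0.47), Cox8b (-0.46), Uqcrb (-0.44), Ndufs6 (-0.44), Ndufa6 (-0.42) and Ndufa2 (-0.42). The highest there were Ndufaf2 (0.62), Ndufaf5 (0.56), Ndufaf6 (0.44) and Ndufa11 (0.42). Both tissues were lower at PN2 for 50 members (56.8%, against 30.1% of all genes), but for 29 (33.0%, against 28.6%) with median centring, 20 (22.7%, against 22.5%) in the deposited ratios and 73 (83.0%, against 64.6%) without normalisation.

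**Figure D2:**
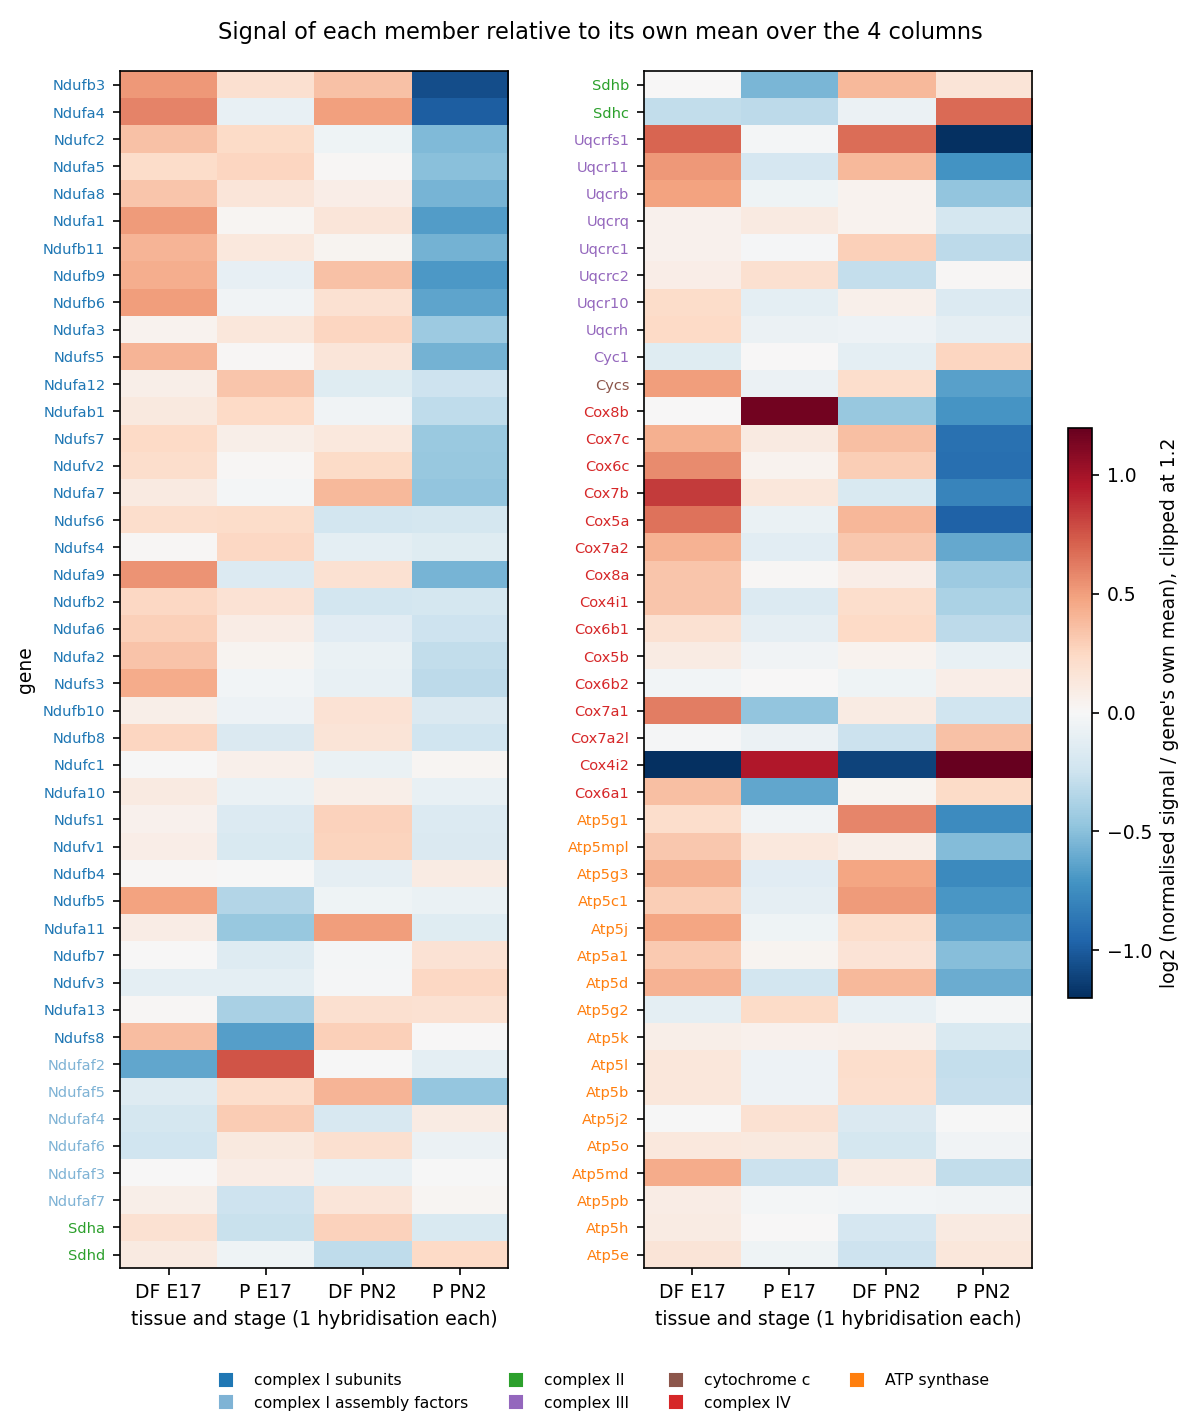
Normalised log2 signal of each compared member relative to its own mean over the 4 columns (colour, clipped at 1.2), with genes in rows and the 4 tissue and stage columns in order DF E17, P E17, DF PN2, P PN2. Gene names are coloured by complex. The P PN2 column is the lowest for 55 of the 88 members, and Cox4i2 shows the reverse of most genes, high in both papilla columns.

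The promoters of these genes are known for shared elements bound by NRF1, GABP (an ETS factor), YY1 and the estrogen-related receptors (ERR). RefSeq windows from 250 bases before to 50 after the start (GRCm38.p6) were at hand for 75 of the 91 members, in 80 windows. Each motif was searched on both strands as exact letters. The last 3 letters of the GABP motif are the first 3 of the YY1 motif, so matches to these may overlap. The NRF1 letters, GCGCA, any base, then GCGC, were in 20 of the 80 windows (25.0%) and in 4.6% of 32851 windows of all genes. The GABP letters CCGGAAG were in 22.5% against 8.86%, the YY1 letters AAGATGGC in 12.5% against 2.75%, and the ERR letters TCAAGGTCA in 2.5% against 0.423%. At least 1 motif was found in 41 of the 75 members and none in the other 34. A match describes the letters and is not a binding site. Over the stages of the papilla, the 17 compared members with a GABP match had a median of -0.04 and the 57 without had -0.39, and their DF over P ratio changed between stages by medians of -0.26 and 0.28. For NRF1 the papilla medians were -0.25 over 19 members with a match and -0.38 over 55 without, and for YY1 they were -0.39 over 10 with a match and -0.27 over 64 without. Whether a match bears on the ratios of a gene was not tested. Below are the 150 bases before the start, 5′ to 3′, of 4 members that the results return to, with a match in capitals: Uqcrfs1 and Atp5g3 were lowest in P PN2, and Cox6a1 and Sdhd were not. These 4 were picked and do not stand for the rest. Members with a GABP match lay on both sides, since Uqcr11 and Ndufb6 had one and were lowest in P PN2. All 4 genes lie on the minus strand of GRCm38.p6, at chr13:30545317-30545466 (Uqcrfs1), chr2:73911327-73911476 (Atp5g3), chr5:115348959-115349108 (Cox6a1) and chr9:50603850-50603999 (Sdhd).
Uqcrfs1: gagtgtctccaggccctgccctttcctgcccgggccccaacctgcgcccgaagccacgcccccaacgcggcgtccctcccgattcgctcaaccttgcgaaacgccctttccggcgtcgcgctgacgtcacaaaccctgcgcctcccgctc
Atp5g3: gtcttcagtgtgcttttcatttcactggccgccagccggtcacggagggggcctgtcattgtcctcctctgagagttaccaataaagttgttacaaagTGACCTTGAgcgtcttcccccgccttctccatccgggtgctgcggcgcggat
Cox6a1: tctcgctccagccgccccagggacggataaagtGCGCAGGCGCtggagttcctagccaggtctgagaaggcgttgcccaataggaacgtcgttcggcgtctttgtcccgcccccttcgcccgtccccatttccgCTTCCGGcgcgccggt
Sdhd: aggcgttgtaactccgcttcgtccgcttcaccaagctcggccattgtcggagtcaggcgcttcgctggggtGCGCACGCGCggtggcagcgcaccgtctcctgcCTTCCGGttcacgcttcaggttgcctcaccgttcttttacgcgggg
The Uqcrfs1 stretch holds none of the 4 motifs. The capitals in Atp5g3 are an ERR match that begins 52 bases before the start. In Cox6a1 they are an NRF1 match at 117 and a GABP match at 16 bases before the start, and in Sdhd an NRF1 match at 79 and a GABP match at 46. Outside the printed stretch, the searched windows also hold an NRF1 match in Atp5g3 and an ERR match in Sdhd.

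Complex I subunits followed the overall pattern. In DF over P, 28 of the 36 were above 0 at E17 with a median of 0.20, and 30 of 36 were above 0 at PN2 with a median of 0.41. In the papilla from E17 to PN2, 27 of the 36 were below 0, with a median of -0.39, and these 3 medians kept their sign under all 4 scalings. In the follicle the median was -0.13, and it was 0.02 in the deposited ratios.

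Ndufa4, named as a complex I subunit and now known as a component of complex IV, gave normalised signals of 4353 and 2717 in DF and P at E17 and 4052 and 1452 in DF and P at PN2. Both follicle signals exceeded both papilla signals, and the log2 ratio of DF over P was 0.68 at E17 and 1.48 at PN2, the highest of the complex I names at PN2. Ndufb3, an accessory subunit of the membrane arm, read 8664 and 6888 in DF and P at E17 and 7682 and 2887 in DF and P at PN2. The first 3 lay close together and P PN2 stood below them, with a log2 ratio of -1.25 in P from E17 to PN2 and 1.41 in DF over P at PN2. Ndufb9, another membrane arm subunit, read 2010 and 1388 in DF and P at E17 and 1898 and 920.0 in DF and P at PN2. It showed the same order of columns as Ndufa4 and a DF over P ratio of 1.05 at PN2.

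Ndufs8, a core iron-sulphur subunit, was the complex I subunit called at E17, with signals of 426.5 and 208.5 in DF and P at E17 and 403.0 and 330.8 in DF and P at PN2. Here the E17 papilla was the low column. The DF over P ratio was 1.03 at E17 and 0.28 at PN2, and without normalisation it was 0.74 at E17, short of 2-fold. Ndufb5, of the membrane arm, read 984.1, 552.7, 679.1 and 666.9 in the same order of columns. Its high column was DF E17 and the other 3 lay near each other, so that its DF over P ratio was 0.83 at E17 and 0.03 at PN2. Among other core subunits, Ndufv1, which binds NADH, had DF over P ratios of 0.26 and 0.44 at E17 and PN2, Ndufs1 had 0.22 and 0.43, Ndufv2 0.19 and 0.68 and Ndufs7 0.16 and 0.57. All 4 were thus above 0 in DF over P at both stages and within 2-fold, as means over probes. For Ndufv2 at E17 the brighter probe gave -0.0006, and the dimmer, designed on a cDNA clone, gave 0.39.

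A few complex I subunits went the other way in the papilla from E17 to PN2. Ndufs8 had a ratio of 0.67, Ndufa13 (also known as GRIM-19, linked to cell death) 0.57, Ndufv3 0.37, Ndufb7 0.32 and Ndufa11 0.31. These 5 are the highest of the group and none passed 2-fold, and without normalisation 0 of the 36 were above 0. Ndufc2, with -0.76, was among the lowest in the papilla. Ndufa3 and Ndufa7 had changes of the DF over P ratio between stages of 0.79 and 0.73, and Ndufa7 had a follicle ratio of 0.28, the mean of probes at -0.27 and 0.83. The lowest DF over P ratios of the group were -0.26 for Ndufa12 at E17 and -0.27 for Ndufv3 at PN2. Ndufv3 has 3 probes, which ranged from -0.85 to 0.52 in that comparison. Ndufc1, Ndufs4 and Ndufs5 had probes that disagreed by more: the 2 Ndufs4 probes gave -0.86 and 0.91 in DF over P at PN2, those of Ndufs5 -0.16 and 1.57, and the 3 of Ndufc1 ranged from -1.21 to 0.78. In each of these genes a probe designed on a cDNA clone was dim, with normalised signals of at most 123.6. That probe gave 0.91 for Ndufs4, -0.16 for Ndufs5 and -1.21 for Ndufc1. The brighter probes gave -0.86 for Ndufs4, 1.57 for Ndufs5, and 0.12 and 0.78 for Ndufc1. The means there, 0.03, 0.70 and -0.10, thus mix bright and dim probes.

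The complex I assembly factors did not share the follicle's higher signals at E17. Of the 6 compared, 5 were below 0 in DF over P at E17, with a median of -0.37 that kept its sign under all 4 scalings, while at PN2 the median was 0.11 with 4 of 6 above 0. Ndufaf2, a chaperone related in sequence to the subunit Ndufa12, read 56.4 and 146.4 in DF and P at E17 and 86.5 and 80.3 in DF and P at PN2. Only P E17 passed the limit of 100, and the other 3 signals lay near the dim end of the array, where the 5th percentile of normalised signal was 37.9. Passing the filter thus fixed its sign at E17, where it is 1 of the 5 below 0. Its DF over P ratio went from -1.37 at E17 to 0.11 at PN2, a change of 1.48. Ndufaf5, which modifies the core subunit Ndufs7, read 322.4 and 417.5 in DF and P at E17 and 476.8 and 261.5 in DF and P at PN2. The follicle was lower than the papilla at E17 and higher at PN2, with ratios of -0.37 and 0.87 and a change of 1.24. The remaining factors, Ndufaf3, Ndufaf4, Ndufaf6 and Ndufaf7, had changes between stages from -0.20 to 0.63. The 3 Ndufaf4 probes ranged from -1.29 to 0.08 in DF over P at E17.

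Complex II, the enzyme that also serves the citric acid cycle, was the exception among the complexes. In the papilla from E17 to PN2 all 4 subunits were above 0, with a median of 0.50. Sdha was the lowest at 0.08, the mean of probes on both sides of 0. Every other group had a median below 0 in the quantile-normalised signals. Without normalisation the complex II median was -0.24. It exceeded the median of all genes by 0.52 with quantile normalisation, and by 0.56 with median centring, in the deposited ratios and without normalisation. The last settings differ from each other by a constant per comparison, so they share this value by construction. Sdhc, a membrane anchor, read 653.8 and 646.3 in DF and P at E17 and 761.1 and 1282 in DF and P at PN2. The PN2 papilla was its high column, with a ratio of 0.99 in P from E17 to PN2, just within 2-fold, and -0.75 in DF over P at PN2. The papilla ratio passed 2-fold with median centring (1.06) and in the deposited ratios (1.15), and was 0.28 without normalisation. Sdhd, the other anchor, read 1374 and 1228 in DF and P at E17 and 1032 and 1502 in DF and P at PN2. P PN2 was again the highest and DF PN2 the lowest, and the DF over P ratio went from 0.16 at E17 to -0.54 at PN2.

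The catalytic subunits of complex II differed from the anchors. Sdhb, which holds the iron-sulphur clusters, read 497.7 and 340.2 in DF and P at E17 and 652.5 and 554.1 in DF and P at PN2. Both PN2 signals exceeded both E17 signals, and the ratio of PN2 over E17 was 0.39 in the follicle and 0.70 in the papilla. Sdha, the flavoprotein that oxidises succinate, read 389.9 and 285.9 in DF and P at E17 and 415.7 and 302.4 in DF and P at PN2. Its follicle signals were above its papilla signals, with DF over P ratios of 0.45 and 0.46, all 3 probes above 0 in both. Its stage ratios were 0.09 and 0.08, and its 3 probes ranged from -0.53 to 0.99 in the follicle. In the papilla they ranged from -0.20, at the brightest probe, to 0.40. The median of complex II in DF over P was 0.31 at E17, positive under all 4 scalings, and -0.15 at PN2, where median centring gave 0.03, the deposited ratios 0.20 and no normalisation 0.29.

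**Figure D3:**
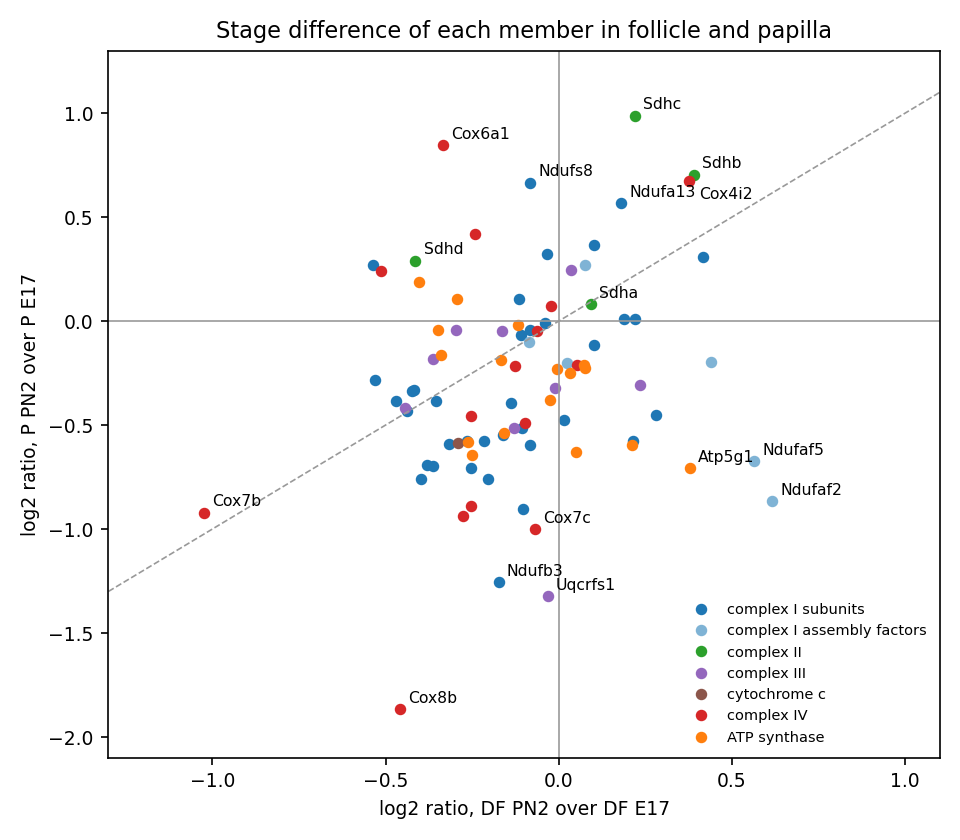
Log2 ratio of PN2 over E17 in the papilla (vertical axis) against that in the follicle (horizontal axis) for the 88 compared members, coloured by complex, with a dashed line where both are equal. Each point is 1 gene. Sdhc, Sdhb and Cox6a1 lie above 0 in the papilla, and Cox8b, Uqcrfs1 and Ndufb3 lie below -1 there.

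Complex III held the member with the highest DF over P ratio at PN2. Uqcrfs1, the Rieske iron-sulphur protein that takes electrons from ubiquinol, read 4898 and 2967 in DF and P at E17 and 4792 and 1188 in DF and P at PN2. The 2 follicle signals were nearly equal and P PN2 was far below the rest. The DF over P ratio was 0.72 at E17 and 2.01 at PN2, a change of 1.29, and the papilla ratio from E17 to PN2 was -1.32. These calls at PN2 and in the papilla stood under all 4 scalings. Uqcr11, a small subunit, read 4964, 3014, 4543 and 2111 in DF E17, P E17, DF PN2 and P PN2. Its order of columns was the same with a smaller step, and its DF over P ratios were 0.72 and 1.11. Uqcrb, which binds ubiquinone, had ratios of 0.54 at E17 and 0.52 at PN2.

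The rest of complex III spread to both sides. Cyc1, the cytochrome subunit of the complex, read 618.4 and 688.9 in DF and P at E17 and 633.2 and 816.5 in DF and P at PN2. It was the lowest of complex III in DF over P, at -0.16 at E17 and -0.37 at PN2, and it was the only one of the 9 above 0 in the papilla from E17 to PN2, at 0.25. The core proteins Uqcrc1 and Uqcrc2 had DF over P ratios at PN2 of 0.60 and -0.29. The hinge protein Uqcrh had 0.30 at E17 and 0.05 at PN2. The 2 probes of Uqcrq disagreed at PN2, at -0.63 and 1.14. The second was designed on a cDNA clone and was the dimmer, at normalised signals of 82.1 to 195.6 against 1957 to 3033. The group medians of DF over P were 0.30 at E17 and 0.25 at PN2, positive under all 4 scalings, and 8 of 9 were below 0 in the papilla from E17 to PN2, with 5 of 9 below 0 in the deposited ratios. Cycs, the mobile carrier between complexes III and IV, read 2471 and 1662 in DF and P at E17 and 2019 and 1108 in DF and P at PN2. Both follicle signals exceeded both papilla signals, with DF over P ratios of 0.57 and 0.87, and its 3 probes ranged from 0.25 to 1.02 at E17 and from 0.75 to 1.03 at PN2.

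Complex IV had the widest range of ratios of all groups in each comparison. In DF over P the median was 0.33 at E17 with 12 of 15 above 0 and 0.52 at PN2 with 11 of 15 above 0, positive under all 4 scalings. In the papilla from E17 to PN2 the median was -0.22, and 0.04 in the deposited ratios. Cox4i2, the form of subunit IV known from lung and from cells at low oxygen, read 81.6 and 444.4 in DF and P at E17 and 105.9 and 709.6 in DF and P at PN2. Both papilla signals were far above both follicle signals. Its DF over P ratios of -2.45 and -2.74 were the lowest of all members at both stages, and both were past 2-fold under all 4 scalings. Its common partner Cox4i1 read 7069 and 4994 in DF and P at E17 and 6475 and 4293 in DF and P at PN2. It went the other way within 2-fold, with ratios of 0.50 and 0.59.

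Cox7a1, the muscle and heart form of subunit VIIa, read 377.3 and 177.8 in DF and P at E17 and 264.3 and 209.9 in DF and P at PN2. DF E17 was its highest column, and its DF over P ratio was 1.09 at E17 and 0.33 at PN2, with 0.74 at E17 without normalisation. Its common partner Cox7a2 had ratios of 0.55 and 0.94, and its 2 probes gave 0.53 and 0.56 at E17 and 0.93 and 0.95 at PN2. Cox7a2l, which takes part in joining complexes III and IV, had 0.05 and -0.61, and P PN2 was its highest column. Cox8b, the heart and muscle form of subunit VIII in mouse, read 57.0 and 126.3 in DF and P at E17 and 41.5 and 34.6 in DF and P at PN2. Only P E17 exceeded 100, and P PN2 was under the 5th percentile of 37.9. Passing the filter thus fixed the sign of the Cox8b ratios against P E17. Its ratio was -1.15 in DF over P at E17 and -1.87 in P from E17 to PN2, and it was 0.26 in DF over P at PN2, where the other scalings gave values from -0.35 to -0.09. Its common partner Cox8a had DF over P ratios of 0.32 and 0.52.

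Muscle markers were measured beside these isoforms. The 9 measured skeletal muscle markers summed to 4750 and 7635 in DF and P at E17 and 3579 and 7956 in DF and P at PN2. Most of each sum was Myod1, a regulator of muscle cell fate. The other 8 summed to 1178 and 740.6 in DF and P at E17 and 1026 and 789.6 at PN2. The full sum was thus higher in P and the sum without Myod1 higher in DF. Of the 7 compared, 4 were above 0 in DF over P at E17, with a median of 0.25, and 3 at PN2, with a median of -0.12. Actn3, a sarcomere protein of fast fibres, had the highest ratios, at 3.05 and 1.79. Myod1 had the lowest, at -0.95 and -1.49. The part of the muscle markers in the Cox7a1 and Cox8b signals was not tested. Cox6a2, the muscle form of subunit VIa, lay between 60.2 and 88.4 in all 4 columns and was not compared. Cox8c, a testis form, lay between 27.2 and 46.3. Cox6b2, also a testis form, read 376.3, 386.4, 370.4 and 406.7 in DF E17, P E17, DF PN2 and P PN2, with no column apart. Its partner Cox6b1 had DF over P ratios of 0.29 and 0.56.

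**Figure D4:**
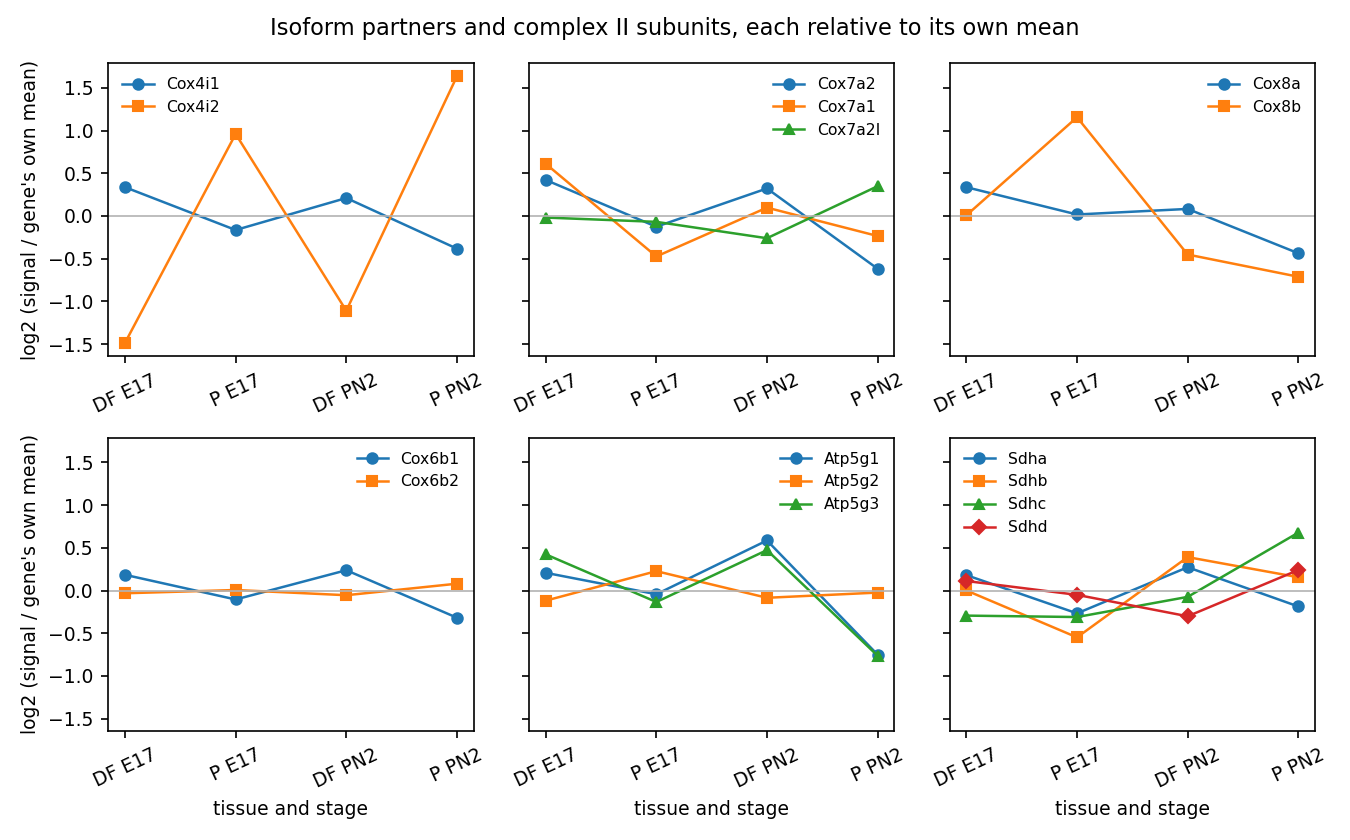
Normalised signal of isoform partners and of the complex II subunits (vertical axis, log2 relative to each gene's own mean over the columns) in the 4 tissue and stage columns (horizontal axis). Each marker is 1 column with 1 hybridisation, and lines only join the markers of a gene. Cox4i2 is high in both papilla columns while Cox4i1 is low there, and P PN2 is the lowest column of Atp5g1 and Atp5g3 but not of Atp5g2.

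Among the complex IV subunits with a single form, several shared the low PN2 papilla. Cox5a read 6508 and 3929 in DF and P at E17 and 5463 and 2118 in DF and P at PN2. Cox6c read 9656, 6694, 7980 and 3490, and Cox7c read 22890, 18240, 21810 and 9127, in the same order of columns. In all 3 genes the columns ran from DF E17 down through DF PN2 and P E17 to P PN2, and the DF over P ratios at PN2 were 1.37, 1.19 and 1.26. Cox5b lay between -0.06 and 0.15 in the 4 comparisons. Cox7b, coded on the X chromosome, read 12670 and 7742 in DF and P at E17 and 6225 and 4087 in DF and P at PN2. It was lower at PN2 in both tissues, at -1.03 in the follicle and -0.92 in the papilla, and the follicle ratio was -0.85 with median centring and -0.77 in the deposited ratios, short of 2-fold. Of the other X-linked members, Ndufa1 had follicle and papilla ratios of -0.36 and -0.70, and Ndufb11 had -0.38 and -0.69.

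Cox6a1, the common form of subunit VIa, was the only member whose DF over P ratio dropped past 2-fold between the stages. It read 7466 and 3777 in DF and P at E17 and 5917 and 6791 in DF and P at PN2. P E17 was its low column, unlike most members. The DF over P ratio was 0.98 at E17 and -0.20 at PN2, a change of -1.18, which was -0.62 without normalisation. In the papilla from E17 to PN2 its ratio was 0.85, and it passed 2-fold with median centring (1.03) and in the deposited ratios (1.11).

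In ATP synthase, 15 of 17 members were above 0 in DF over P at E17 with a median of 0.20, and 12 of 17 at PN2 with a median of 0.48. In the papilla from E17 to PN2, 15 of 17 were below 0 with a median of -0.23. The sign of these 3 medians was the same under all 4 scalings, although the papilla median was -0.02 in the deposited ratios. Atp5g1, Atp5g2 and Atp5g3 code for the same mature membrane rotor subunit with different import sequences. Atp5g1 read 1120 and 941.1 in DF and P at E17 and 1456 and 576.4 in DF and P at PN2. It was highest in DF PN2 and lowest in P PN2, with DF over P ratios of 0.25 and 1.34 and a change of 1.09. Atp5g3 read 36440, 24750, 37710 and 16000 in the same order, with ratios of 0.56 and 1.24. Atp5g2 read 5734, 7286, 5869 and 6122, and its ratios were -0.35 and -0.06. Its 2 probes gave -0.44 and -0.25 at E17 and -0.12 and 0.00 at PN2. The 3 genes for this subunit thus did not share a column order.

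The stalk and head of ATP synthase varied as well. Atp5c1, the central shaft, read 1228 and 928.1 in DF and P at E17 and 1423 and 615.0 in DF and P at PN2. P PN2 was the low column and the DF over P ratio at PN2 was 1.21. Atp5d, also of the central stalk, had 0.63 at E17 and 0.99 at PN2, while Atp5e, which sits beside it, had 0.21 and -0.38. The subunits of the head, Atp5a1 and Atp5b, had 0.67 and 0.48 at PN2, with every probe above 0. In the peripheral stalk, Atp5j had 0.85 at PN2, Atp5o -0.17 and Atp5h -0.31. The 3 probes of Atp5pb ranged from -0.97 to 0.61 in the follicle from E17 to PN2. Atp5md, a small membrane subunit, had the highest ratio of the complex at E17 at 0.70 and had 0.39 at PN2, and Atp5mpl had 0.20 and 0.60. Atp5j2, also of the membrane part, was at -0.19 at E17 and -0.16 at PN2.

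Other mitochondrial genes were set beside the members. The 16 compared genes of pyruvate dehydrogenase and the citric acid cycle had DF over P medians of 0.20 at E17 and 0.26 at PN2, with 0 higher and 1 lower past 2-fold at each stage (Suclg2 at -1.60 and Pdha1 at -1.11). Of the 38 assembly genes outside the rule, 0 were higher and 1 lower past 2-fold at E17, and 3 higher and 1 lower at PN2, from -1.13 for Sdhaf3 to 1.42 for Cox15. Their medians were 0.01 and 0.13. The 77 compared genes of the mitochondrial ribosome had medians of -0.04 and 0.12, with 0 higher and 1 lower past 2-fold at E17 and 3 and 2 at PN2. The 11 membrane transport genes had medians of 0.01 and 0.11, with 0 past 2-fold at E17 and 2 higher and 0 lower at PN2. The 16 genes of mitochondrial DNA and biogenesis had medians of -0.03 and -0.13, with 1 higher past 2-fold at E17 (Tfb2m, 1.15) and 2 lower at PN2 (the lowest being Polg, -1.26). The medians of the ribosome, biogenesis and assembly lists thus lay closer to the median of all genes, -0.07 at both stages, than those of the members at 0.21 and 0.37. Those of the citric acid cycle list, 0.20 and 0.26, were near the members at E17 and lower than the members at PN2.

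From E17 to PN2 in the papilla, the ribosome list had a median of -0.19, the citric acid cycle list -0.09, the outside assembly list -0.08, the transport list -0.05 and the biogenesis list -0.01, against -0.29 for the members. Past 2-fold in the papilla were 2 genes higher and 1 lower of the ribosome list, 2 higher and 0 lower of the assembly list, 1 higher and 0 lower of the biogenesis list and 0 of the citric acid cycle list. In the follicle from E17 to PN2, 0 genes of these 5 lists passed 2-fold. Of the 11 transport genes, 0 were higher and 1 was lower past 2-fold in the papilla from E17 to PN2: Vdac2, a channel of the outer membrane, at -1.69. Vdac2 was also the highest of that list in DF over P at PN2, at 2.37. Among the assembly genes Surf1, which helps to build complex IV, was highest in the papilla at 1.37, and Sco1, which carries copper to complex IV, was lowest at -0.99. Cell cycle markers also differed between the papilla stages: all 9 compared were below 0, with a median of -0.74 and a summed signal of 14810 in P E17 and 8676 in P PN2. The part of the cell cycle genes in the lower papilla signals of the members was not tested.

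**Figure D5:**
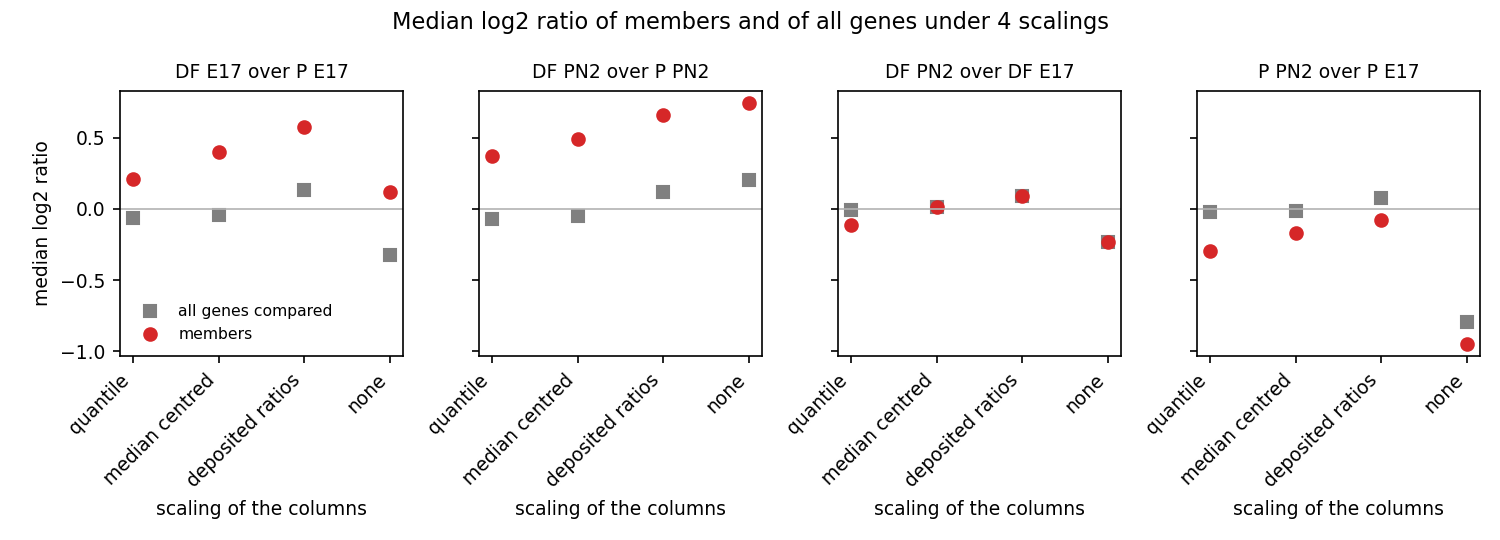
Median log2 ratio (vertical axis) of the 88 members (red circles) and of all genes compared (grey squares) under 4 scalings of the columns (horizontal axis), in each of the 4 comparisons. The members lie above all genes in DF over P at both stages under each scaling. In the papilla from E17 to PN2 they lie below all genes under each. In the follicle the medians coincide under 3 of the 4. Those 3 differ by a constant per comparison, so the gap between circle and square is the same in them by construction.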

How the data were processed

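Total RNA of dental follicle and papilla at E17 and PN2 was measured on 2-colour Agilent arrays. Per the submitters' processing notes, the scans were processed by Agilent Feature Extraction 8.5.1.1. Per the file headers, every deposited table gives 30146 probes with the signal intensity, on a linear scale, of the tissues and stages on that array. No source used here says whether background was taken off. A deposited value table holds log10 ratios by the authors, equal to the log10 signal ratio plus a constant per array. As log2 that constant was 0.46, -0.09, 0.32 and 0.87 in DF E17 over P E17, DF PN2 over P PN2, DF PN2 over DF E17 and P PN2 over P E17, and its origin is not given. Groups follow the sample titles: in 1 array the tissue field has DF PN3 instead of DF PN2, and the labels also mention whole embryo and stem cells.

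Gene names came from the platform annotation: 25962 of 30146 probes had 1 symbol, and the other 4184, without a single symbol, were left out of the gene values. The log2 of the signals, without a pseudocount, was quantile normalised across the 4 columns, a gene's value was the mean of its probes, and genes with a highest normalised signal under 100 were left out (pandas 2.3.3, numpy 2.4.6, Python 3.11.15). Flags for background and saturation are not part of the tables used here, and the number of arrays, 1 hybridisation per tissue and stage, limits the precision. The steps that make the calls were tested on simulated data with planted changes, which checks the code and not the calls made here. Named are all members past 2-fold, the 10 highest and 10 lowest per comparison, the ends of each complex and the isoform partners. The members, gene lists and motifs were chosen with earlier results of these data known. Alternatives were the scaling, the filter, the floor and the choice of probes.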

Additional observations from a re-analysis of the deposited data

Results flagged for a closer look

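In 5 members the ratio had opposite signs in the tissues or at the stages and the difference between them passed 2-fold. With 1 hybridisation per column this difference was not tested. Atp5g1 was higher at PN2 than at E17 in the follicle (0.38) and lower in the papilla (-0.71), a difference of 1.085 on the log2 scale. Ndufaf5 had 0.56 and -0.67 in the same order, a difference of 1.24. Ndufaf2 had 0.62 and -0.87, a difference of 1.48, on dim signals, and it passed the filter only through P E17. Cox6a1 ran the other way, with -0.34 in the follicle and 0.85 in the papilla, a difference of -1.18, and -0.62 without normalisation. Cox8b was lower in DF than in P at E17 (-1.15) and at 0.26 in DF over P at PN2, a difference of 1.41. The PN2 value was below 0 under the other 3 scalings and both PN2 signals were near the dim end. Cox8b too passed the filter only through P E17.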

How the results depend on the processing

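No paired analysis was possible because each tissue and stage has 1 hybridisation. Scaling moved the results most. Without normalisation the median of all genes was -0.32 in DF over P at E17, 0.21 at PN2, -0.23 in the follicle, -0.80 in the papilla and 0.52 for the change between stages, and the deposited ratios put it at 0.13, 0.12, 0.09, 0.07 and -0.02. Against that, the members' median at E17 was 0.12 without normalisation, 0.40 with median centring and 0.58 in the deposited ratios, and at PN2 0.75, 0.49 and 0.66. In the follicle it was -0.23, 0.013 and 0.090, in the papilla -0.95, -0.17 and -0.079, and the change between stages was 0.72 without normalisation. Counts of the 88 members follow, with those of all 14238 genes in brackets. Members called higher at E17 numbered 0 (921) without normalisation and 12 (1790) in the deposited ratios. At PN2 they numbered 34 (2804) without normalisation, 18 (1916) with centring and 27 (2462) in the deposited ratios. Called lower in the follicle were 2 (1357), 0 (814) and 0 (712) under these 3 scalings. In the papilla 2 (775) were called higher with centring and 2 (979) in the deposited ratios. Without normalisation 42 (4980) were called lower there. In the change between stages 19 (3301) then passed 2-fold upward and 0 (480) downward. The counts over all genes thus moved with the scaling as well. With a filter at 200, 1 of 86 members was called lower at E17, against 1042 of 11317 genes. The follicle median thus changed sign with centring and in the deposited ratios, and no called member changed sign. Of the 28 calls of named members, 27 held with centring and in the deposited ratios and 25 without normalisation. All 28 held with the brightest probe, the median over probes, a floor at the 5th percentile, no filter, and without probes designed on cDNA clones, a setting chosen after seeing the data. Some settings also added calls. With the brightest probe 12 members were called higher at PN2, 4 lower in the papilla and 7 upward between stages, where these were 11, 3 and 6. Over all genes the brightest probe gave 2050, 933 and 1389 of 14435. The counts without clone probes and with no filter were the same 12, 4 and 7. All genes then had 1837, 732 and 1366 of 13820 without clone probes, and 1940, 813 and 1495 of 16039 with no filter. The filter at 200 left 23, and all 23 held. Every member called with quantile normalisation and the mean over probes has a single probe, and the signals of Cox8b and Ndufaf2 were dim.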
